A study of Homo sapiens with 14 samples.

Results

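The genes described here are 44 regulators of RNA splicing, of the 27819 genes that the 4 count tables have in common, and the list was set by symbol, with earlier results of these data known. They are 20 hnRNP genes, 13 genes of the SR and SR-like family, 7 regulators known for splicing programmes that differ between tissues (RBFOX2, ESRP1, ESRP2, PTBP1, QKI, MBNL1 and MBNL2) and 4 factors of the 3′ splice site and of nuclear speckles (U2AF1, U2AF2, SRRM2 and RBM39). All 44 had a row in every table. The RNA came from CWR22Rv1 cells, an established human prostate cancer cell line, and was sequenced as stranded mRNA libraries. Treatment lasted 72 h. There were 3 libraries with the solvent DMSO, 3 with Fucotrim I at 30 μM, 2 with Fucotrim II at 60 μM, 3 with SGN-2FF at 100 μM and 3 with P-SiaFNEtoc at 2 μM. Fucotrim I, Fucotrim II and SGN-2FF are metabolic inhibitors of fucosylation, the addition of fucose to glycans, and P-SiaFNEtoc is an inhibitor of sialylation, the addition of sialic acid. The study states that both Fucotrims also lower GDP-mannose levels. It reports that Fucotrim I inhibited fucosylation in this line, but too weakly for its potency to be determined. Libraries of 1 group are labelled as biological repeats of 1 cell line, 3 per condition by the study's methods. The series of 14 samples holds 2 for Fucotrim II, and both were used. Replicate numbers are those of the titles, and Fucotrim II replicates 1 and 2 carry the numbers 2 and 3 in the library names. The same 3 DMSO libraries were the control for every inhibitor and the doses differed, so the values of the inhibitors are set side by side and no inhibitor was tested against another.

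Splicing removes introns from pre-mRNA, and the regulators described here help to decide which exons are kept. SR proteins carry a domain rich in arginine and serine, bind mostly to exonic enhancers and help the spliceosome to recognise an exon, whereas hnRNP proteins coat the nascent transcript and often act against exon inclusion, depending on where they bind. The RBFOX, ESRP, MBNL, QKI and PTBP1 proteins each read a short RNA motif and set exon choice in particular tissues. ESRP1 and ESRP2 maintain epithelial splice forms.

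Counts on genes added up to between 12553094 and 19981453 per library. Values per library are given as CPM, the counts scaled to a common library size, with all 14 libraries scaled together by the TMM method. Fold changes come from a separate fit of each inhibitor with DMSO, and a gene is called higher or lower where the adjusted p of edgeR's quasi-likelihood test with the Benjamini-Hochberg method over all genes tested was under 0.05. The luminal and epithelial markers KLK3, HOXB13, KRT8, KRT18 and EPCAM were detected in all 14 libraries. KLK3 stood at 27.5 to 32.3 CPM in DMSO, 58.9 to 76.6 with Fucotrim I, 44.1 to 48.2 with Fucotrim II, 72.4 to 79.2 with SGN-2FF and 43.1 to 47.7 with P-SiaFNEtoc, and HOXB13, KRT8 and KRT18 were likewise higher in every treated library than in DMSO. Of 12 markers of leukocyte, stromal, endothelial, basal and neuroendocrine cells, SYP, COL1A1 and CD68 passed the filter on low counts in every fit and the other 9 had at most 13 counts in a library. Between 1 and 4 of the 12 were at 0 in all libraries of a group. COL1A1 and SYP were called higher with Fucotrim II, SYP with Fucotrim I and CD68 with SGN-2FF. Summed over the 12 genes, the level was 121 to 134 CPM in DMSO, 136 to 153 with Fucotrim I, 166 to 186 with Fucotrim II, 118 to 133 with SGN-2FF and 129.7 to 136 with P-SiaFNEtoc. Mitochondrially encoded genes took 5.98% to 7.03% of the counts in DMSO and 6.11% to 6.84% with P-SiaFNEtoc. Their share was 8.28% to 8.69% with SGN-2FF, 8.67% to 14.2% with Fucotrim I and 12.2% to 17.0% with Fucotrim II.

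In the DMSO libraries the regulators spanned a wide range of levels. Levels of different genes are compared here only per length, as CPM per kilobase of annotated exon, in the DMSO libraries. With this length HNRNPAB had the highest level, 198 ± 18.7 (SD, n = 3), followed by HNRNPA2B1 at 148 ± 4.17, HNRNPK at 132 ± 2.85, HNRNPA1 at 124.5 ± 1.47 and HNRNPF at 124.0 ± 1.82. The ranges of the DMSO libraries overlapped for HNRNPA1 and HNRNPF. With the longest transcript as the length the order at the top changed, and HNRNPA2B1 (277 ± 7.83) and HNRNPK (258 ± 5.54) stood above HNRNPAB (235 ± 22.2), with the ranges of HNRNPK and HNRNPAB overlapping. Among the SR genes, SRSF2 was highest (99.1 ± 6.76) and SRSF4 (11.1 ± 0.59) and SRSF8 (11.5 ± 0.15) were at the bottom, with overlapping ranges and in the opposite order with the longest transcript. ESRP1, at 30.8 ± 1.13, was above ESRP2, at 22.5 ± 0.76, and their libraries did not overlap. MBNL1 (13.7 ± 0.66), MBNL2 (4.52 ± 0.16) and QKI (2.21 ± 0.14) were far lower, and RBFOX2 was at 0.46 ± 0.09. U2AF1 and HNRNPH2 could not be ranked, for the reasons given with their counts further on. The median over the 44 genes was 39.4 with all annotated exons as the length and 58.7 with the longest transcript.

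**Figure D1:**
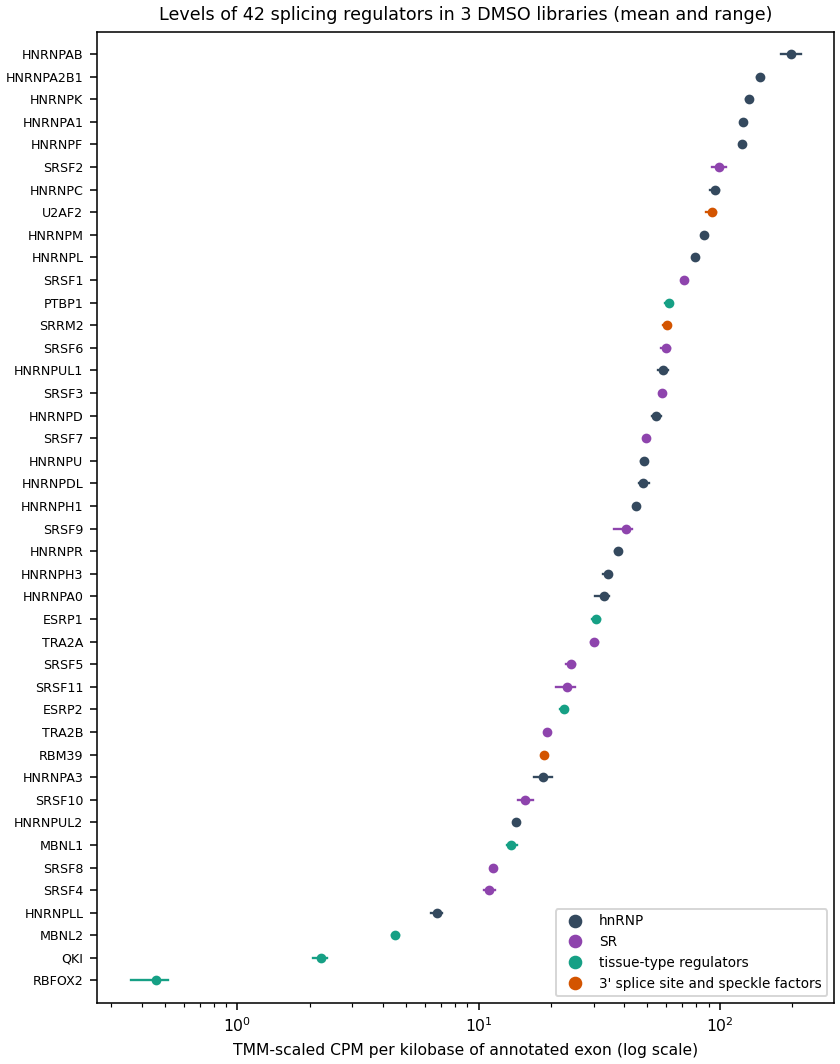
Levels of 42 splicing regulators in DMSO, as TMM-scaled CPM per kilobase of annotated exon on a log axis, with the mean as a point and the range of the 3 libraries as a line, coloured by group. HNRNPAB, HNRNPA2B1 and HNRNPK are at the top, and RBFOX2, at 0.46, is below QKI, at 2.21; U2AF1 and HNRNPH2 are left out.

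Many genes of splicing regulators also hold poison exons, whose inclusion sends the transcript to nonsense-mediated decay and lowers the level of the mRNA. GENCODE annotates at least 1 transcript subject to nonsense-mediated decay for 37 of the 44 genes (84.1%), among them all 13 SR genes, 14 of 20 hnRNP genes and 6 of 7 tissue-type regulators. Of the 12860 protein-coding genes tested with Fucotrim I, 6008 (46.7%) have one. The count tables hold 1 value per gene, so these transcripts cannot be told apart from the productive ones.

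Promoter windows were read from the RefSeq promoter table (GRCh38.p14), which had a match for 36 of the 44 genes. ESRP1, ESRP2, HNRNPA1, QKI, RBFOX2, RBM39, SRSF2 and TRA2A had none. In the 250 bases before each start, 6 motifs were searched on both strands, and none of them is contained in another. A gene was counted where any of its windows held the motif. The 36 genes had 54 windows, and the 27305 genes of the whole table had 35116. The 8-base palindrome CTCGCGAG was present for 5 of the 36 genes, HNRNPK, HNRNPH3, HNRNPUL1, SRSF4 and SRSF10 (13.9%, against 1.05% of all 27305 genes in the table). The palindrome CACGTG was present for 7 genes (19.4%, against 7.73%) and CCGGAAGT for 4 (11.1%, against 4.13%). The short motif CCAAT was found for 20 (55.6%, against 37% of all genes), GGGCGG for 24 (66.7%, against 46.2%) and TATAAA for 6 (16.7%, against 13%). Per window, the shares were 9.26% against 0.874% for CTCGCGAG, 14.8% against 6.34% for CACGTG and 7.41% against 3.42% for CCGGAAGT. They were 42.6% against 32% for CCAAT, 57.4% against 42.6% for GGGCGG and 11.1% against 10.7% for TATAAA. For HNRNPK, HNRNPH3 and HNRNPUL1 not every window held CTCGCGAG. The stretches of the 5 genes with CTCGCGAG are printed because they share the rarest of these motifs, that of HNRNPU because it had the largest fall among the hnRNP genes, and that of TRA2B because it was called lower with every inhibitor. Each is written 5′ to 3′ on the strand of the gene and is the longest stretch of the window free of annotated UTR bases, with every match to a motif on either strand in capitals.
HNRNPK: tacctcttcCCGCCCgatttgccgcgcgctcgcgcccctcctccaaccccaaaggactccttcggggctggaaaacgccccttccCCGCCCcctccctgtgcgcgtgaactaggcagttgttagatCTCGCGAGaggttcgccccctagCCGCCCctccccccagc
HNRNPH3: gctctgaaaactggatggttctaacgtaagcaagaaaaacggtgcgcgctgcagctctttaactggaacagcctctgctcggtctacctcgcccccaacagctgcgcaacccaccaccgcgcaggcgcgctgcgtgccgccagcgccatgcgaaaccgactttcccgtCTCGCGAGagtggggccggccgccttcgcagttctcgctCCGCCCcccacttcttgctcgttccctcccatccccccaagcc
HNRNPUL1: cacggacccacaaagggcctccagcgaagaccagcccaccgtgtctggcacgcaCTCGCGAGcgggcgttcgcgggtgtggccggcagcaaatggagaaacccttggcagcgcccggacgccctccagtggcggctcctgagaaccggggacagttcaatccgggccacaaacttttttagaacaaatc
SRSF4: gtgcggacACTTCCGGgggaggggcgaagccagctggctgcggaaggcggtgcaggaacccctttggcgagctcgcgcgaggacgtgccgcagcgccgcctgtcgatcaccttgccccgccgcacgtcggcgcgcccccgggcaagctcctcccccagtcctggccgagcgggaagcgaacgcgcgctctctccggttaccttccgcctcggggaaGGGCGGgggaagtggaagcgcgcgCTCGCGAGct
SRSF10: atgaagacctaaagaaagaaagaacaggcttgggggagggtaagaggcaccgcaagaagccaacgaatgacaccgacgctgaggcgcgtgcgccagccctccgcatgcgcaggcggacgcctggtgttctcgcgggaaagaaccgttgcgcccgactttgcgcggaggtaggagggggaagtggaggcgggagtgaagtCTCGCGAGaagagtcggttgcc
HNRNPU: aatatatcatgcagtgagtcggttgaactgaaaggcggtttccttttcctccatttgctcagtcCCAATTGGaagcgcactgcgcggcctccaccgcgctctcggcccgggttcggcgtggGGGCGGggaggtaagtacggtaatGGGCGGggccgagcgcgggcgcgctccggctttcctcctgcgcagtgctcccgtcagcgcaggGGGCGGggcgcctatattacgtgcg
TRA2B: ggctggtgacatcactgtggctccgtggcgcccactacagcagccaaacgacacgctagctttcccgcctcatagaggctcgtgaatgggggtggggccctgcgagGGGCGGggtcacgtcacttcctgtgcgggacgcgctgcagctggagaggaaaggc
The stretch of HNRNPK is chr9:83980632-83980797, minus strand, that of HNRNPH3 is chr10:68331814-68332063, plus strand, and that of HNRNPUL1 is chr19:41262307-41262495, plus strand. Those of SRSF4 and SRSF10 are chr1:29181901-29182150, minus strand, and chr1:23980357-23980577, minus strand. HNRNPU is at chr1:244864561-244864793, minus strand, and TRA2B at chr3:185938104-185938264, minus strand. CTCGCGAG stands once in each of the first 5 stretches. The HNRNPU stretch holds GGGCGG at several places and CCAAT overlapping its own reverse complement, and the TRA2B stretch holds GGGCGG once. Of the 5 genes with CTCGCGAG, SRSF4 was called with no inhibitor. HNRNPK, HNRNPH3, HNRNPUL1 and SRSF10 were called lower with Fucotrim II, as were 59.1% of the 44 regulators and 25.7% of all genes tested. HNRNPK, HNRNPH3 and HNRNPUL1 were also called lower with Fucotrim I, and SRSF10 was not. With Fucotrim I, 53.5% of the regulators tested and 22.1% of all genes tested were called lower. No test was made of the motif against the calls.

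Each inhibitor was compared with DMSO to ask which of the 44 regulators changed in level. With both Fucotrims the regulators were mostly lower. With Fucotrim I, 23 of the 43 regulators tested were called lower (53.5%, against 22.1% of the 14188 genes tested) and 4 were called higher (9.30%, against 21.6%), where 43.8% of all genes were called in either direction. The median log2 fold change was -0.16 over the regulators and 0.00 over all genes tested. With Fucotrim II, 26 of 44 were called lower (59.1%, against 25.7% of 14617 genes) and 2 higher (4.55%, against 25.6%, and 51.4% of all genes in either direction), with a median of -0.29 against 0.01 over all genes. The falls were small: a fall beyond 0.58 on the log2 scale was called for 1 regulator with Fucotrim I (RBFOX2) and for 5 with Fucotrim II (RBFOX2, HNRNPU, HNRNPR, MBNL1 and SRSF1), where 2.57% and 7.66% of all genes were past that line. A rise beyond 0.58 was called for 0 of the regulators with each inhibitor, where 6.46% of all genes passed with Fucotrim I, 13.1% with Fucotrim II, 2.15% with SGN-2FF and 1.44% with P-SiaFNEtoc. In bulk RNA, fewer cells of a type and less RNA per cell cannot be told apart.

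With SGN-2FF, 2 of 43 regulators were called lower (RBFOX2 and TRA2B; 4.65%, against 9.08% of 14312 genes) and 1 was called higher (ESRP2; 2.33%, against 11.5%), with 20.6% of all genes called in either direction. With P-SiaFNEtoc, 7 of 43 were called lower (RBFOX2, TRA2B, TRA2A, SRSF7, HNRNPH1, HNRNPA2B1 and RBM39; 16.3%, against 7.33% of 14259 genes) and 1 was called higher (ESRP2; 2.33%, against 9.02%), with 16.3% of all genes called in either direction. Among the P-SiaFNEtoc falls, RBFOX2 was past 0.58 on the log2 scale, and this was also the case with SGN-2FF (0.245% and 0.51% of all genes). The median over the regulators was 0.01 with SGN-2FF and -0.04 with P-SiaFNEtoc, and 0.00 over all genes in both. Some calls in these shorter lists rested on single libraries. The count of lower regulators with P-SiaFNEtoc was 4 without DMSO replicate 3, 3 without P-SiaFNEtoc replicate 1 and 4 without P-SiaFNEtoc replicate 2, and that of higher ones was 0 without DMSO replicate 1 or 3 and on leaving out each P-SiaFNEtoc library in turn. For SGN-2FF, 1 regulator was lower without DMSO replicate 3 or SGN-2FF replicate 1 or 2, and 2 were higher without DMSO replicate 2. In a single fit of all 14 libraries, 2 were called lower and 0 higher with P-SiaFNEtoc: of the 7 genes called lower TRA2B kept its call, and the other was the sparsely counted U2AF1, which the separate fit did not test. The count of higher regulators with Fucotrim I was 2 on leaving out each DMSO library in turn, and with Fucotrim II it was 0 without DMSO replicate 1 or 3 and 5 without Fucotrim II replicate 2.

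**Figure D2:**
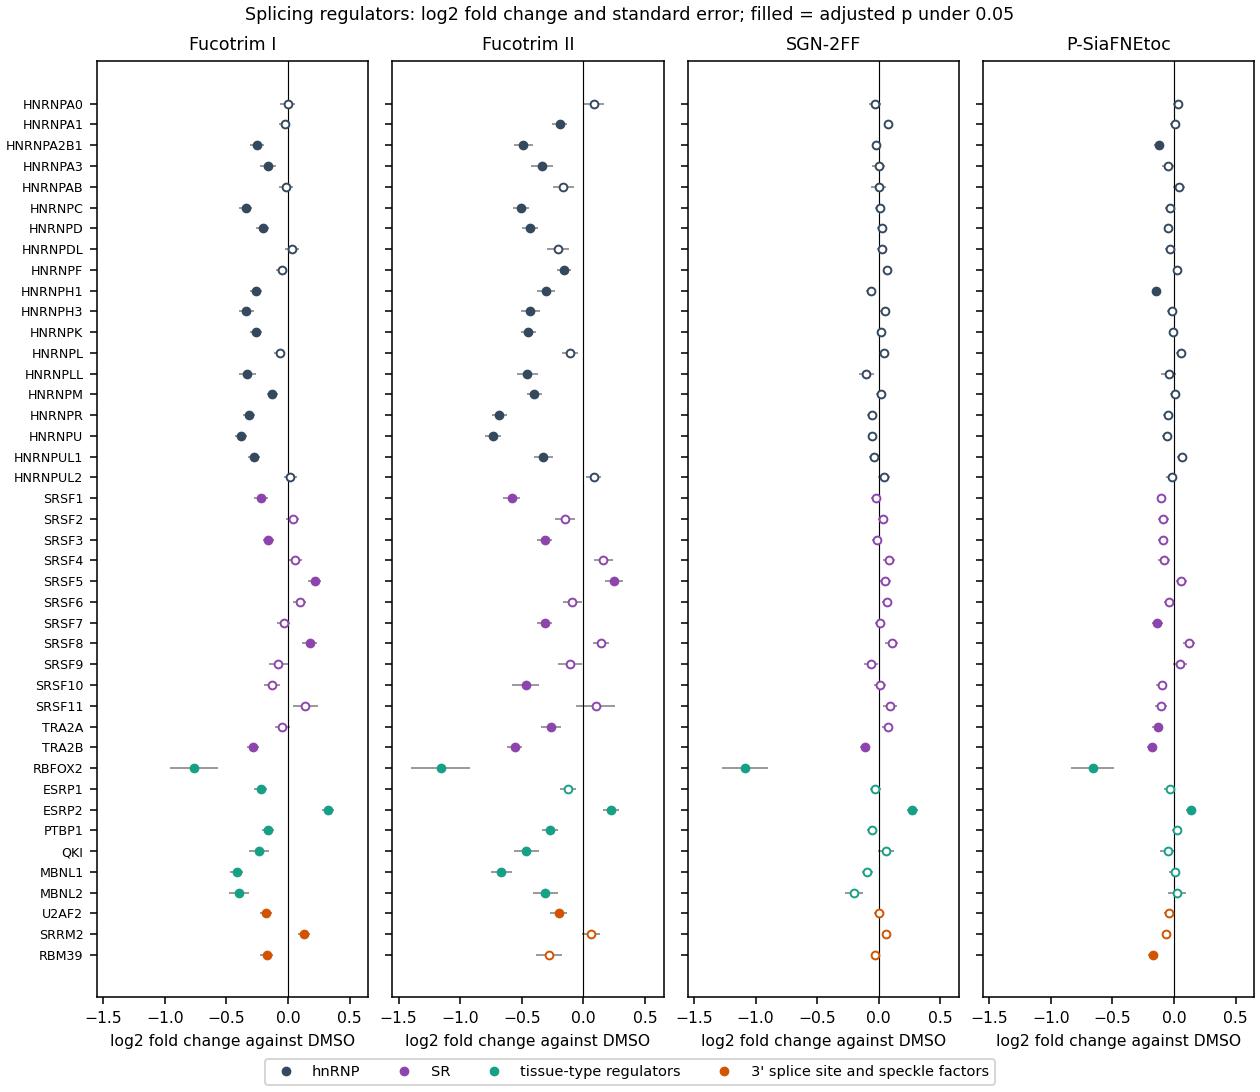
Log2 fold change against DMSO with its standard error (grey line) for 42 splicing regulators and each inhibitor, coloured by group and filled where the adjusted p was under 0.05. Most filled points with Fucotrim I and Fucotrim II lie left of 0, RBFOX2 and TRA2B are filled and left of 0 in all 4 panels, and ESRP2 is filled and right of 0 in all 4; U2AF1 and HNRNPH2 are left out.

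Most hnRNP genes fell with each of the Fucotrims. With Fucotrim I, 12 of 20 were called lower (60%, against 22.1% of all genes tested) and 0 higher (against 21.6%), and the 8 not called lay between -0.07 and 0.37. With Fucotrim II, 14 of 20 were called lower (70%, against 25.7%) and 0 higher (against 25.6%). The median log2 fold change of the group was -0.18 with Fucotrim I and -0.33 with Fucotrim II. Leaving out single libraries gave 10 to 12 lower genes with Fucotrim I and 12 to 15 with Fucotrim II, and with Fucotrim II 1 hnRNP gene, HNRNPA0, was called higher without Fucotrim II replicate 1. With SGN-2FF none of the 20 was called, against 20.6% of all genes in either direction. The values lay between -0.10 and 0.45, the highest being that of the sparsely counted HNRNPH2. With P-SiaFNEtoc, HNRNPA2B1 and HNRNPH1 were called lower (10%, against 7.33%, near the share of all genes). The count was 0 without P-SiaFNEtoc replicate 1 and 1 on leaving out any 1 DMSO library or P-SiaFNEtoc replicate 2.

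HNRNPU, a nuclear scaffold protein that binds RNA and chromatin, fell most among the hnRNP genes. Its level was 1126, 1059 and 1085 CPM in DMSO, 799, 856 and 849.6 with Fucotrim I, 666 and 647 with Fucotrim II, 1028, 1054 and 1045 with SGN-2FF and 1030, 1049 and 1054 with P-SiaFNEtoc. All libraries of both Fucotrims were below all DMSO libraries. The SGN-2FF and P-SiaFNEtoc libraries also lay below DMSO. Against DMSO, HNRNPU had a log2 fold change of -0.38 with Fucotrim I (standard error 0.05, adjusted p = 2.25e-06 in edgeR's test) and -0.74 with Fucotrim II (standard error 0.06, adjusted p = 3.3e-05), a fall of 23.2% and of 40.0%. With SGN-2FF and P-SiaFNEtoc the values were -0.05 and -0.06, neither of them called. HNRNPU lies on chromosome 1 from 244840638 to 244864560 (hg38), with the minus strand as its own, and 19.0% of its exonic sequence overlaps annotation of the other strand, including COX20.

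HNRNPR, which binds mRNA and takes part in its processing and transport, was also called lower with both Fucotrims. It stood at 339.6, 327 and 322 CPM in DMSO, 250.4, 278 and 263 with Fucotrim I, 209 and 203 with Fucotrim II, 307, 314 and 322 with SGN-2FF and 315, 324 and 313 with P-SiaFNEtoc. The Fucotrim libraries did not overlap with DMSO, and neither did the SGN-2FF libraries, of which the highest equalled the lowest DMSO library to 4 digits. Its log2 fold change was -0.32 with Fucotrim I (standard error 0.05, adjusted p = 3.54e-05 in edgeR's test) and -0.68 with Fucotrim II (standard error 0.06, adjusted p = 3.58e-05). The calls of HNRNPU and HNRNPR with both Fucotrims held in every alternative that was run.

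HNRNPH1, a regulator that binds runs of G in RNA, was called lower with 3 of the inhibitors. Its level was 426, 433 and 423 CPM in DMSO, 334, 369 and 364 with Fucotrim I, 373 and 322 with Fucotrim II, 396, 418 and 402 with SGN-2FF and 376, 396 and 388 with P-SiaFNEtoc. None of the treated libraries reached the lowest DMSO library, although with SGN-2FF the value of -0.06 did not pass the test (adjusted p = 0.198 in edgeR's test). Fucotrim I gave a log2 fold change of -0.26, Fucotrim II -0.30 and P-SiaFNEtoc -0.14 (adjusted p = 0.00017, 0.00732 and 0.00936 in edgeR's test). The P-SiaFNEtoc call was lost without P-SiaFNEtoc replicate 1 (adjusted p = 0.0525 in edgeR's test) and in a single fit of all 14 libraries (adjusted p = 0.104).

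The other hnRNP genes called lower with the Fucotrims fell less than HNRNPU with each of them, but most fell further than HNRNPH1 with Fucotrim II. HNRNPC, which packages long nascent transcripts, had log2 fold changes of -0.34 with Fucotrim I and -0.51 with Fucotrim II. HNRNPA2B1, a regulator that also sorts RNAs for transport, had -0.25 and -0.49, HNRNPK, which binds runs of C, had -0.26 and -0.45, and HNRNPH3 had -0.34 and -0.43. HNRNPLL, HNRNPD, HNRNPUL1, HNRNPM and HNRNPA3 were also called lower with both, between -0.13 and -0.33 with Fucotrim I and between -0.33 and -0.46 with Fucotrim II. HNRNPA1 and HNRNPF were called lower with Fucotrim II (-0.19 and -0.16), while both calls were lost on leaving out each DMSO library in turn. HNRNPA3 with Fucotrim I (-0.16) lost its call without DMSO replicate 1 or 2 or Fucotrim I replicate 1 or 3, and HNRNPM with Fucotrim I (-0.13) without DMSO replicate 1 or 3 or Fucotrim I replicate 1. HNRNPA2B1 with P-SiaFNEtoc (-0.12, adjusted p = 0.0372 in edgeR's test) lost it on leaving out each DMSO library in turn and without P-SiaFNEtoc replicate 1 or 2. HNRNPA0, HNRNPAB, HNRNPDL, HNRNPH2, HNRNPL and HNRNPUL2 were called with no inhibitor. Part of these counts could come from other genes: 53.7% of the exon bases of HNRNPA3 overlap NFE2L2 on the opposite strand, 44.3% of those of HNRNPUL2 lie in the readthrough gene HNRNPUL2-BSCL2 on the same strand, and 23.6% of the 100-base windows in HNRNPL transcripts and 10.5% of those in HNRNPA1 transcripts also occur in other genes.

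Summed over the 20 genes, the hnRNP level was 9413 to 9783 CPM in DMSO, 8006 to 8624 with Fucotrim I and 7340 and 7446 with Fucotrim II. It was 9472 to 9534 with SGN-2FF and 9177 to 9497 with P-SiaFNEtoc. The sums with both Fucotrims lay below every DMSO library, and the other 2 inhibitors overlapped with DMSO. The mitochondrial share of counts was higher with both Fucotrims than in DMSO, but it did not move against the hnRNP sum within either group. In Fucotrim I the library with the lowest share, 8.67%, had the lowest sum, 8006. In Fucotrim II the library with the higher share, 17.0%, had the higher sum, 7446. The part of the mitochondrial share in these values was not tested. With the mitochondrially encoded genes left out of the fit, 23 regulators were called lower with Fucotrim I and 24 with Fucotrim II. NEAT1 and MALAT1, RNAs that stay in the nucleus, were called higher with both Fucotrims, NEAT1 with log2 fold changes of 1.01 and 1.097. For SGN-2FF the log2 fold change of NEAT1 was 0.60, also called.

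**Figure D3:**
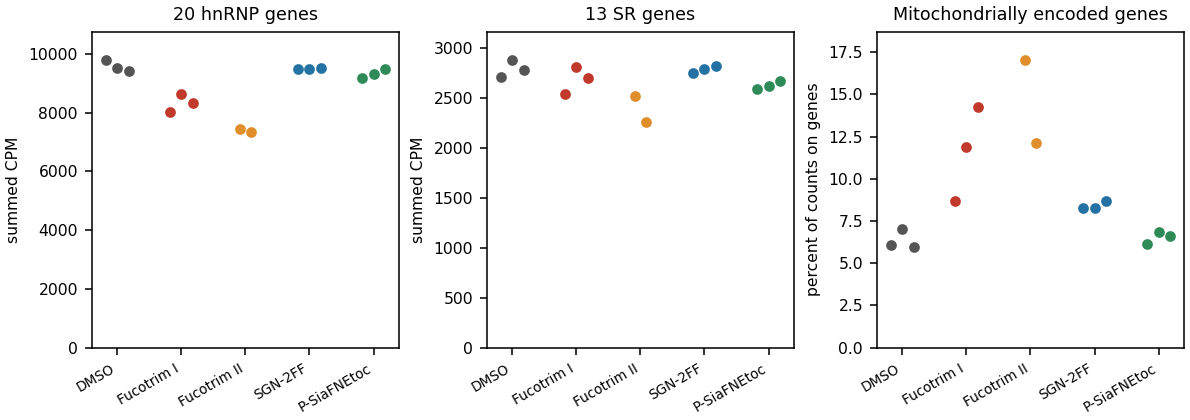
Summed CPM of the 20 hnRNP genes (left) and of the 13 SR genes (middle) and the percent of counts on mitochondrially encoded genes (right), 1 point per library, axes starting at 0. The hnRNP sums of both Fucotrims lie below the DMSO range of 9413 to 9783, the SR sums of Fucotrim I overlap with DMSO, those of Fucotrim II and P-SiaFNEtoc lie below it, and the mitochondrial shares of both Fucotrims and SGN-2FF lie above the DMSO range of 5.98% to 7.03%.

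SR genes were called in both directions with the Fucotrims. With Fucotrim I, 3 of 13 were called lower (SRSF1, SRSF3 and TRA2B; 23.1%, against 22.1% of all genes tested) and 2 higher (SRSF5 and SRSF8; 15.4%, against 21.6%), with a median of -0.04, so the share called lower was near that of all genes. With Fucotrim II, 6 were called lower (SRSF1, SRSF3, SRSF7, SRSF10, TRA2A and TRA2B; 46.2%, against 25.7%) and 1 higher (SRSF5; 7.69%, against 25.6%), with a median of -0.15. TRA2B was the 1 SR gene called with SGN-2FF (7.69% lower, against 9.08%), and SRSF7, TRA2A and TRA2B were called lower with P-SiaFNEtoc (23.1%, against 7.33%). The summed SR level was 2711 to 2880 CPM in DMSO and 2537 to 2815 with Fucotrim I, which overlap, and 2263 and 2517 with Fucotrim II, which lie below DMSO. It was 2749 to 2822 with SGN-2FF and 2596 to 2675 with P-SiaFNEtoc, the latter also below every DMSO library.

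TRA2B, a sequence-specific activator that binds purine-rich enhancers, was called lower with all 4 inhibitors. Its level was 252, 254 and 251 CPM in DMSO, 198, 218 and 205 with Fucotrim I, 177 and 168 with Fucotrim II, 229.9, 229.5 and 234 with SGN-2FF and 221, 219 and 227 with P-SiaFNEtoc. The DMSO libraries lay within 4 CPM of each other, and every treated library was below them. Its log2 fold change in edgeR's test was -0.28 with Fucotrim I (standard error 0.05, adjusted p = 0.0001) and -0.56 with Fucotrim II (standard error 0.06, adjusted p = 9.7e-05). The same edgeR test gave -0.11 with SGN-2FF (standard error 0.04, adjusted p = 0.0267) and with P-SiaFNEtoc -0.18 (standard error 0.04, adjusted p = 0.00146). The SGN-2FF call was lost on leaving out each DMSO library in turn and without SGN-2FF replicate 1 or 2, with adjusted p between 0.0516 and 0.117 in edgeR's test, and in the single fit of all libraries, and the other 3 calls held in every alternative. TRA2B lies on chromosome 3 from 185914558 to 185938103, and none of its exon bases are shared with another annotated gene. TRA2A, its paralogue, was called lower by Fucotrim II (-0.27) and by P-SiaFNEtoc (-0.13), and its value was -0.05 for Fucotrim I and 0.07 for SGN-2FF. Its Fucotrim II call was lost without DMSO replicate 2 or 3 and its value was -0.16 without Fucotrim II replicate 2, and its P-SiaFNEtoc call without DMSO replicate 2 or 3 or P-SiaFNEtoc replicate 1 or 2.

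SRSF1, the founding SR protein and an activator at exonic enhancers, had the largest fall of an SR gene. It stood at 409, 425 and 403 CPM in DMSO, 329, 386 and 345 with Fucotrim I, 290.0 and 263 with Fucotrim II, 398, 404 and 405 with SGN-2FF and 378, 385 and 386 with P-SiaFNEtoc. Both Fucotrims were below DMSO in every library. The fold change of SRSF1 on the log2 scale was -0.22 with Fucotrim I (adjusted p = 0.00248 in edgeR's test) and -0.58 with Fucotrim II (standard error 0.07, adjusted p = 0.000133). With P-SiaFNEtoc the libraries were also all below DMSO, and the value of -0.10 did not pass the test (adjusted p = 0.0607 in edgeR's test), although it did without P-SiaFNEtoc replicate 3 (-0.11, adjusted p = 0.0452). Of the SRSF1 exon bases, 32.7% are shared on the same strand with a second annotated gene, ENSG00000266086.

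SRSF5, another SR protein with enhancer binding, moved the other way. Its level was 124, 134 and 130.2 CPM in DMSO, 144, 153 and 153 with Fucotrim I, 162 and 147 with Fucotrim II, 134, 132 and 133 with SGN-2FF and 130.3, 136 and 138 with P-SiaFNEtoc. The Fucotrim libraries were all above DMSO, and the other 2 inhibitors overlapped with it. For SRSF5 the log2 fold change was 0.22 with Fucotrim I (adjusted p = 0.0023 in edgeR's test) and 0.25 with Fucotrim II (adjusted p = 0.0153). The Fucotrim II call was lost without DMSO replicate 1 or 3 (adjusted p = 0.089 and 0.0673 in edgeR's test). Within a library, the ratio of SRSF5 to SRSF1 counts was 0.302 to 0.323 in DMSO, 0.398 to 0.443 with Fucotrim I and 0.557 and 0.558 with Fucotrim II. This ratio does not depend on the scaling of the library, and it was 0.326 to 0.338 with SGN-2FF and 0.344 to 0.358 with P-SiaFNEtoc. It was chosen after the values of both genes were seen and is given as a description.

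SRSF3, a small SR protein that also acts in mRNA export, had -0.16 with Fucotrim I and -0.32 with Fucotrim II, both called. SRSF7 was called lower with Fucotrim II (-0.31) and with P-SiaFNEtoc (-0.14), the latter lost without DMSO replicate 1 or 3 or P-SiaFNEtoc replicate 1 or 2 and at -0.09 without P-SiaFNEtoc replicate 1. SRSF10, which acts as a repressor when dephosphorylated and whose promoter stretch is printed above, had -0.47 with Fucotrim II (adjusted p = 0.00573 in edgeR's test) and -0.13 with Fucotrim I, which was not called. SRSF10 was at -0.30 without Fucotrim II replicate 2. SRSF8 was called higher with Fucotrim I (0.17, adjusted p = 0.0212 in edgeR's test), and this was lost on leaving out each DMSO library in turn. The count of SR genes called higher with Fucotrim I was 1 on leaving out each DMSO library in turn and 4 without Fucotrim I replicate 1, and with Fucotrim II it was 0 without DMSO replicate 1 or 3 and 3 without Fucotrim II replicate 2. With P-SiaFNEtoc the count of SR genes called lower was 5 without DMSO replicate 1 or P-SiaFNEtoc replicate 3 and 1 without DMSO replicate 3 or P-SiaFNEtoc replicate 1 or 2. SRSF2, SRSF4, SRSF6, SRSF9 and SRSF11 were called with no inhibitor. SRSF2 and SRSF9 share 27.7% and 43.6% of their exon bases with MFSD11 and GATC on the opposite strand.

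The tissue-type regulators held the largest called fall of the 44 genes, that of RBFOX2, and the largest called rise, that of ESRP2. With Fucotrim I, all 7 were called, ESRP2 higher (14.3%, against 21.6% of all genes tested) and the other 6 lower (85.7%, against 22.1%). With Fucotrim II 5 were called lower (71.4%, against 25.7%) and ESRP2 higher (14.3%, against 25.6%). RBFOX2 was called lower and ESRP2 higher with each of the 4 inhibitors, and no other member of this group was called with SGN-2FF or P-SiaFNEtoc. With these 2 inhibitors that is 14.3% of the group in each direction. Of all genes, 9.08% were lower and 11.5% higher with SGN-2FF, and 7.33% and 9.02% with P-SiaFNEtoc. Leaving out DMSO replicate 3 left 3 lower with Fucotrim II, and leaving out DMSO replicate 2 gave 2 lower with SGN-2FF. ESRP2 and RBFOX2 with P-SiaFNEtoc, and ESRP2 with Fucotrim II, depended on single libraries, as given with each gene.

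RBFOX2 binds GCAUG in introns, raises or lowers exon inclusion by position, and is linked to splice forms of mesenchymal cells. Its level was 6.38, 6.17 and 4.45 CPM in DMSO, 3.23, 4.25 and 2.43 with Fucotrim I, 1.99 and 3.11 with Fucotrim II, 3.11, 2.91 and 1.90 with SGN-2FF and 4.57, 3.40 and 2.58 with P-SiaFNEtoc. DMSO replicate 3 was the lowest of the 3 controls, and 1 P-SiaFNEtoc library lay above it, while the libraries of the other inhibitors were all below it. These values rest on 71 to 116 counts in DMSO and 25 to 95 counts in the treated libraries. Against DMSO, RBFOX2 had a log2 fold change in edgeR's test of -0.76 with Fucotrim I (standard error 0.19, adjusted p = 0.00332) and -1.16 with Fucotrim II (standard error 0.24, adjusted p = 0.00306). The edgeR value was -1.09 with SGN-2FF (standard error 0.18, adjusted p = 0.000106) and -0.66 with P-SiaFNEtoc (standard error 0.18, adjusted p = 0.00996). The P-SiaFNEtoc call was lost without P-SiaFNEtoc replicate 3 (-0.49, adjusted p = 0.0729 in edgeR's test) and in a single fit of all 14 libraries (adjusted p = 0.0743), and the calls of the other 3 inhibitors held in every alternative. RBFOX2 lies on chromosome 22 from 35738736 to 36028824, and none of its exon bases are shared with another annotated gene.

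ESRP2 and ESRP1 are paralogues that bind the same kind of GU-rich motif. ESRP2 stood at 113, 121 and 116 CPM in DMSO, 149, 145 and 145 with Fucotrim I, 140.5 and 134 with Fucotrim II, 136, 145 and 138 with SGN-2FF and 128, 127 and 130.1 with P-SiaFNEtoc. All 11 treated libraries were above all 3 DMSO libraries. In edgeR's test ESRP2 had a log2 fold change of 0.33 with Fucotrim I (standard error 0.05, adjusted p = 3.64e-05), 0.23 with Fucotrim II (adjusted p = 0.0149), 0.27 with SGN-2FF (adjusted p = 6.87e-05) and 0.14 with P-SiaFNEtoc (adjusted p = 0.025). The Fucotrim II call was lost without DMSO replicate 1 or 3 (adjusted p = 0.0915 and 0.0775 in edgeR's test). The P-SiaFNEtoc call was lost without DMSO replicate 1 or 3 and on leaving out each P-SiaFNEtoc library in turn, with adjusted p between 0.0525 and 0.114 in edgeR's test.

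ESRP1 was the more abundant of the pair per length in DMSO and did not follow ESRP2. Its level was 151, 155 and 144 CPM in DMSO, 121, 134 and 130.0 with Fucotrim I, 142 and 135 with Fucotrim II, 153, 142 and 144 with SGN-2FF and 142, 152 and 144 with P-SiaFNEtoc. With Fucotrim I and Fucotrim II all libraries were below DMSO, and the other 2 inhibitors overlapped with it. On the log2 scale the change was -0.22 with Fucotrim I (adjusted p = 0.00231 in edgeR's test), and -0.13, -0.03 and -0.04 with the other 3, none of them called. The ratio of ESRP2 to ESRP1 counts, again described after both were seen, was 0.75 to 0.808 in DMSO, 1.08 to 1.23 with Fucotrim I, 0.993 and 0.995 with Fucotrim II, 0.887 to 1.02 with SGN-2FF and 0.838 to 0.901 with P-SiaFNEtoc. It was above the DMSO range in all 11 treated libraries.

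MBNL1 binds pyrimidine-flanked GC steps in RNA and drives splicing changes of differentiation. Its level was 131, 144 and 135 CPM in DMSO, 99.7, 106 and 101 with Fucotrim I, 93.7 and 79.5 with Fucotrim II, 124, 126 and 132 with SGN-2FF and 139, 135 and 137 with P-SiaFNEtoc. Both Fucotrims lay below all DMSO libraries, whereas SGN-2FF and P-SiaFNEtoc overlapped with DMSO. The change of MBNL1 on the log2 scale was -0.42 with Fucotrim I (standard error 0.05, adjusted p = 4.57e-06 in edgeR's test) and -0.67 with Fucotrim II (standard error 0.09, adjusted p = 0.000217). Antisense annotation, including MBNL1-AS1, covers 15.9% of the exonic sequence of MBNL1. Its paralogue MBNL2 had -0.40 with Fucotrim I and -0.31 with Fucotrim II, both called, and -0.20 with SGN-2FF (adjusted p = 0.0543 in edgeR's test), with the Fucotrim II call lost without DMSO replicate 1 or 3 or Fucotrim II replicate 2 and the value -0.19 without the last. QKI, which also shapes circular RNAs, had -0.24 and -0.46 with Fucotrim I and II, the first lost without DMSO replicate 1 or 2 or Fucotrim I replicate 1 or 3. PTBP1, a repressor of neuronal exons, had -0.16 and -0.27 with the same pair, the first lost without DMSO replicate 1 or 3 or Fucotrim I replicate 3 and the second without DMSO replicate 3.

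**Figure D4:**
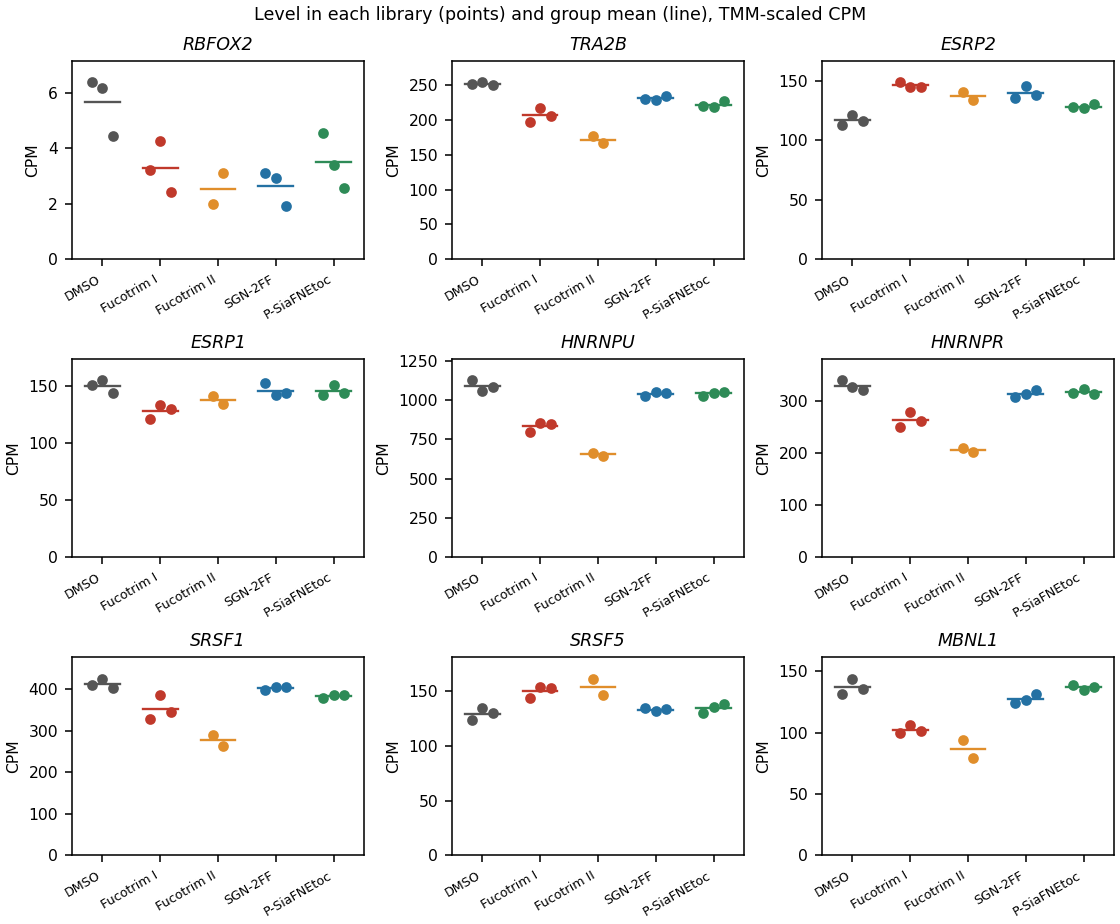
CPM in each library (points) with the group mean (line) for RBFOX2, TRA2B, ESRP2, ESRP1, HNRNPU, HNRNPR, SRSF1, SRSF5 and MBNL1, axes starting at 0. RBFOX2 and TRA2B are lower and ESRP2 higher in nearly all treated libraries, with 1 P-SiaFNEtoc library of RBFOX2 inside the DMSO range, whereas HNRNPU, HNRNPR, SRSF1 and MBNL1 are clearly lower with the Fucotrims.

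Of the factors of the 3′ splice site and of speckles, 2 of the 3 tested were called lower with Fucotrim I (66.7%, against 22.1% of all genes tested). The other 1 was called higher (33.3%, against 21.6%). With Fucotrim II 1 of 4 was lower (25%, against 25.7%), near the share of all genes. With SGN-2FF 0 of 3 were called, against 20.6% of all genes in either direction, and 1 of 3 was lower with P-SiaFNEtoc (33.3%, against 7.33%). U2AF2, the large subunit of the factor that binds the polypyrimidine tract, stood at 390.4, 354 and 379 CPM in DMSO, 328, 321 and 344 with Fucotrim I, 309 and 345 with Fucotrim II, 383, 377 and 357 with SGN-2FF and 354, 363 and 374 with P-SiaFNEtoc. Both Fucotrims were below DMSO, with log2 fold changes of -0.18 (adjusted p = 0.0065 in edgeR's test) and -0.20 (adjusted p = 0.0387). The Fucotrim I call was lost without DMSO replicate 1, and the Fucotrim II call on leaving out each DMSO library in turn and without Fucotrim II replicate 1, where the value was -0.13.

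RBM39, which acts with U2AF at the 3′ splice site, stood at 219, 229 and 225 CPM in DMSO, 186, 214 and 195 with Fucotrim I, 212 and 158 with Fucotrim II, 219, 217 and 219.8 with SGN-2FF and 200.2, 202 and 192 with P-SiaFNEtoc. The Fucotrim I, Fucotrim II and P-SiaFNEtoc libraries were all below DMSO, and the Fucotrim II libraries were far apart from each other. For RBM39 the log2 fold change was -0.17 with P-SiaFNEtoc (adjusted p = 0.00276 in edgeR's test) and -0.17 with Fucotrim I (adjusted p = 0.0126), the latter lost without Fucotrim I replicate 1 or 3. Both calls were lost in a single fit of all 14 libraries (adjusted p = 0.163 with P-SiaFNEtoc and 0.0642 with Fucotrim I in edgeR's test). With Fucotrim II it was -0.28 (standard error 0.11, adjusted p = 0.0527 in edgeR's test).

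SRRM2, a scaffold of nuclear speckles, stood at 754, 798 and 804 CPM in DMSO, 833, 834 and 906 with Fucotrim I, 871 and 772 with Fucotrim II, 804, 829 and 798 with SGN-2FF and 767, 763 and 722 with P-SiaFNEtoc. The Fucotrim I libraries were above DMSO and the others overlapped with it. SRRM2 had a log2 fold change with Fucotrim I of 0.13 (adjusted p = 0.0355 in edgeR's test), lost on leaving out each DMSO library in turn, without Fucotrim I replicate 3 and in the single fit of all libraries. With Fucotrim II it was 0.06, not called, and -0.03 without Fucotrim II replicate 1.

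U2AF1, the small subunit that reads the AG at the end of the intron, was counted too sparsely to be described. Its row held 1 to 116 counts per library, with 5, 116 and 62 in the DMSO libraries and at most 5 in every treated library. LOC102724594, a near-identical copy, held 6 to 195 counts, and 45.0% of the 100-base windows in U2AF1 transcripts also occur in other genes, so the counting could have split the reads. U2AF1 passed the filter on low counts with Fucotrim II, where it had a log2 fold change of -4.07, with 1.47 as its standard error (adjusted p = 0.0612 in edgeR's test), and was not tested with the others. LOC102724594 alone was called higher with Fucotrim I (3.86, standard error 0.85, adjusted p = 0.0224 in edgeR's test), a call lost on leaving out each DMSO library in turn. The 2 rows summed held 9 to 199 counts per library, so the sum was sparse as well. Its log2 fold change was 1.02, 0.34, -0.96 and -2.33 with Fucotrim I, Fucotrim II, SGN-2FF and P-SiaFNEtoc, and none was called. HNRNPH2 had 7 to 22 counts per library, and 15.8% of its exon bases are shared with RPL36A-HNRNPH2.

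The regulators act with the spliceosome and with kinases that phosphorylate SR proteins, whose genes were followed as lists. In 5 lists of spliceosome subunits and the exon junction complex, 29 of 76 genes tested were called lower and 5 higher with Fucotrim I, and 35 lower and 7 higher with Fucotrim II. With SGN-2FF 5 were lower and 9 higher, and with P-SiaFNEtoc 6 were lower and 1 higher. Of all genes tested, 22.1% were lower and 21.6% higher with Fucotrim I, and 25.7% and 25.6% with Fucotrim II. With SGN-2FF 9.08% were lower and 11.5% higher, and with P-SiaFNEtoc 7.33% and 9.02%. These shares stand beside the counts of every list below. In the list of the PRP19 complex and catalytic steps, 12 of 18 genes were lower and 1 higher with Fucotrim I, and 10 lower and 2 higher with Fucotrim II. In that list BCAS2, a core subunit, had -0.64 with Fucotrim II, and XAB2 had 0.29 (adjusted p = 0.000436 and 0.00629 in edgeR's test).

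For the U2 snRNP, 5 of 17 genes were lower with Fucotrim I and 7 with Fucotrim II, against 1 and 2 higher. SF3B3, a subunit of the SF3b complex that holds the branch point, had -0.46 and -0.70, and SF3B5 of the same complex had 0.25 and 0.29, all called. SF3B5 was at 0.15 without Fucotrim I replicate 1, and its Fucotrim II call was lost on leaving out each DMSO library in turn and without Fucotrim II replicate 2 (0.10), while the value was 0.46 without Fucotrim II replicate 1. For U1 and the Sm core, 4 of 14 were lower and 2 higher with Fucotrim I, 7 lower and 2 higher with Fucotrim II, 5 higher with SGN-2FF and 3 lower with P-SiaFNEtoc. Its U1-associated member LUC7L, which takes part in 5′ splice site choice, had 0.67 with Fucotrim II. It was also called higher with Fucotrim I (0.29) and with SGN-2FF (0.22, lost without SGN-2FF replicate 2) and lower with P-SiaFNEtoc (-0.23). For the U4/U6.U5 tri-snRNP, 5 of 18 were lower with Fucotrim I and 7 with Fucotrim II, with 1 higher in each. With Fucotrim I the shares lower in this list, the U2 snRNP and U1 with the Sm core were near the 22.1% of all genes. LSM3 had -0.53 and LSM7 0.31 with Fucotrim II, the latter lost on leaving out each DMSO library in turn and without Fucotrim II replicate 2 (0.13). In the exon junction complex, 3 and 4 of 9 were lower with Fucotrim I and Fucotrim II and 0 higher, CASC3 with -0.44 for Fucotrim II having the largest fall, and ACIN1 was called higher with SGN-2FF by 0.10 (adjusted p = 0.0492 in edgeR's test), a call lost on leaving out any 1 library.

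Among 8 genes tested for SR protein kinases, their phosphatase partner and the SR importer, 3 were lower and 1 higher with Fucotrim I, 4 lower and 3 higher with Fucotrim II, 1 lower and 3 higher with SGN-2FF, and 3 lower with P-SiaFNEtoc. SRPK1, the cytoplasmic SR protein kinase, went from 143 ± 4.84 CPM in DMSO (SD, n = 3) to 98.9 ± 6.03 with Fucotrim II (SD, n = 2), a log2 fold change of -0.53. CLK4, a nuclear kinase of SR proteins, went from 7.98 ± 0.47 to 13.4 ± 3.68 CPM, a log2 fold change of 0.74, or 0.43 without Fucotrim II replicate 1. Of the further regulators and paralogues, 12 of 30 were lower and 5 higher with Fucotrim I, 12 of 33 lower and 4 higher with Fucotrim II, 2 of 29 lower and 3 higher with SGN-2FF, and 3 of 31 lower and 1 higher with P-SiaFNEtoc. RBMX, an hnRNP of another name, had -0.67 with Fucotrim II (standard error 0.06, adjusted p = 3.92e-05 in edgeR's test).

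**Figure D5:**
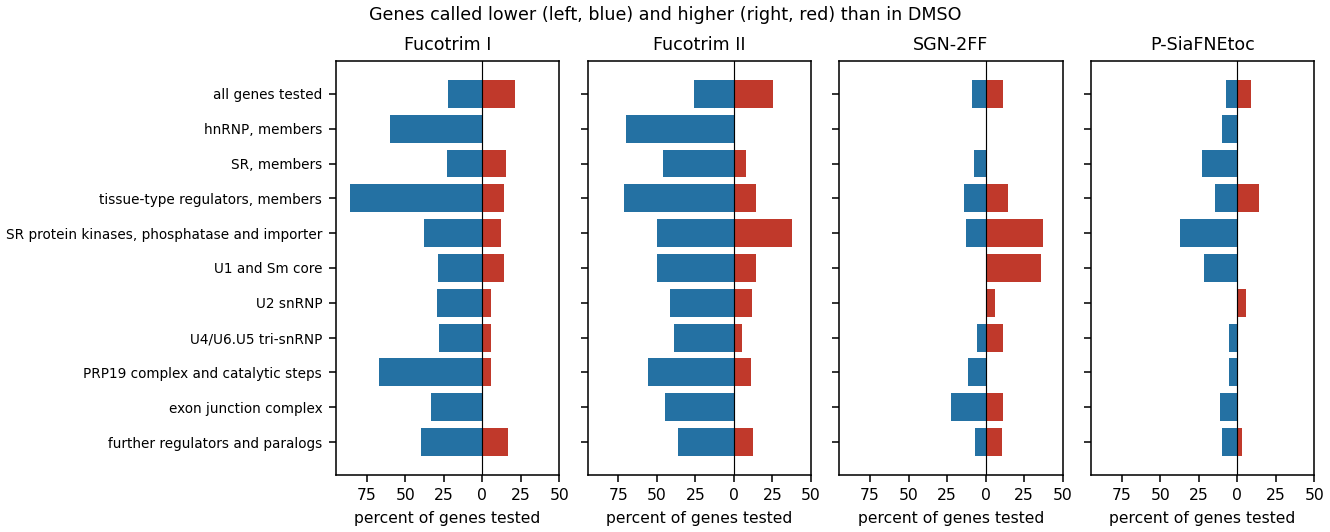
Percent of the genes tested that were called lower (blue, left) or higher (red, right) than in DMSO by edgeR's test at an adjusted p under 0.05, for all genes, 3 groups of the regulators and 7 further lists. With Fucotrim I and Fucotrim II the hnRNP bars (60% and 70% lower, 0 higher) stand beside 22.1% and 25.7% lower for all genes.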

How the data were processed

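RNA of 14 libraries of CWR22Rv1 cells was sequenced. The authors made stranded mRNA libraries, read single ends of 100 bases, used Cutadapt for trimming, HISAT2 for alignment to hg38 and featureCounts for gene counts, all in Galaxy, and raw counts were deposited in 1 table per inhibitor that repeats the DMSO columns. The annotation release, the strand setting and the treatment of reads with several positions are not given in the sources used here. The DMSO counts of the 27819 shared genes were identical in the 4 tables.

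Members, groups and lists were chosen with earlier results of these data known. By the naming rule, values in every library are given for members called beyond 0.58 on the log2 scale with any inhibitor and for the largest called rise and fall of each member group with each inhibitor, and each list is represented by its largest called rise and fall. ESRP1 was given in full outside this rule, after its values were seen. Counts were fitted with edgeR 4.0.16 in R 4.3.3, 1 fit per inhibitor with DMSO, after filterByExpr (minimum count 10, minimum total 15) and TMM scaling, with the robust quasi-likelihood test and Benjamini-Hochberg adjustment. The standard error is the log2 fold change divided by the square root of F. With 2 or 3 libraries per group, p-values measure only the spread between these repeats of 1 cell line. Replicates of a group differed by more than sampling noise. Library totals of 12553094 to 19981453 counts set the precision, and the SGN-2FF table had 549 numbers without a symbol. Overlaps and shared windows of 100 bases come from the GENCODE annotation of hg38.

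Alternatives were leaving out each library, DESeq2 1.42.0 (size factors, and its test), limma 3.58.1 with voom, other filters, an adjusted p under 0.01, mitochondrially encoded genes left out, 1 joint fit of the 14 libraries, the replicate number as a block, and U2AF1 summed with its copy, which was added after seeing the data. Correlations of deviations between DMSO and treated libraries of the same number were 0.125, 0.107 and 0.024 for Fucotrim I. The numbers were not taken as pairs in the main fits, although so few libraries cannot decide whether they mark pairs. Figures were drawn with matplotlib 3.10.9.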

Additional observations from a re-analysis of the deposited data

How the results depend on the processing

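Fold changes of single regulators were tallied under the alternatives where the regulator was called with that inhibitor or named by the naming rule, and for U2AF1. Of these, 1204 kept their direction and call, 126 kept the direction but lost the call, 14 gained one and 13 changed sign. Calls gained by other regulators are not in this tally. Without each library in turn, 19 to 24 regulators were called lower with Fucotrim I and 20 to 31 with Fucotrim II, 1 to 3 with SGN-2FF and 3 to 9 with P-SiaFNEtoc, and 2 to 6, 0 to 5, 1 to 2 and 0 to 1 were called higher. The number called higher with Fucotrim I was 2 without a low-count filter and 2 at an adjusted p under 0.01. With Fucotrim II it was 0 at that threshold, 0 with a replicate block by the numbers of the titles and 4 in a single fit of all libraries. At an adjusted p under 0.01, 1 regulator was lower with SGN-2FF, and 4 were lower and 0 higher with P-SiaFNEtoc. For P-SiaFNEtoc, the single fit called 2 lower and 0 higher, and the DESeq2 test called 0 higher. With a replicate block, 24 were lower and 6 higher with Fucotrim I, 18 lower with Fucotrim II, 2 lower and 1 higher with SGN-2FF and 6 lower and 1 higher with P-SiaFNEtoc. With the library names as numbers, the Fucotrim II block called 27 lower and 2 higher. Same-numbered libraries were not all correlated above 0.1. For Fucotrim II the correlations were 0.192 and 0.0477 with the library names as numbers, and -0.146 and -0.192 with the titles. Correlations within so few libraries cannot decide whether a number marks a pair, and this was not tested. The cause of the differences between the counts called was not tested either.

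Within this tally, signs changed only for values near 0 or sparse counts. U2AF2 with SGN-2FF (0.0029) ranged from -0.0372 to 0.0295 without single libraries, and was -0.000735 with DESeq2 size factors, -0.00448 with the DESeq2 test, -0.00667 without a low-count filter, -0.000267 without mitochondrially encoded genes and -0.00881 in the single fit. MBNL1 with P-SiaFNEtoc ranged from -0.0264 to 0.0445 and SRRM2 with Fucotrim II from -0.0296 to 0.136 without single libraries. U2AF1 with Fucotrim II was 0.34 with its copy LOC102724594 summed, an alternative chosen after seeing the data. The median level per length was 58.7 with the longest transcript as the length. With 2 libraries, Fucotrim II has the least replicate support, and RBFOX2, HNRNPH2 and U2AF1 rest on few counts.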
